A study of Mus musculus with 4 samples.

Results

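The BCL2 family decides whether a cell keeps its mitochondria intact or enters apoptosis, and 10 of its genes were followed here across 4 cultures of mouse bone marrow-derived dendritic cells (BMDC). The genes were 3 survival genes (Bcl2, Bcl2l1 and Mcl1), 5 BH3-only genes (Bcl2l11, Bbc3, Bmf, Pmaip1 and Bid) and 2 effectors (Bax and Bak1). All probe sets that the array annotation assigns to these symbols alone were taken. They numbered 30 of 34945, for 9 of the 10 genes among 18193 genes in all, and Bax has no signals here. Mcl1 had 6 probe sets, Bcl2 and Bcl2l11 had 5 each, Bcl2l1 had 4, Bmf and Bid had 3 each, Bak1 had 2, and Bbc3 and Pmaip1 had 1 each.

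The survival proteins hold the effectors BAX and BAK in check at the outer mitochondrial membrane. BH3-only proteins, made or activated under stress, bind the survival proteins and in part the effectors, so that BAX and BAK open the membrane and release cytochrome c, which starts the caspase cascade. In mice, BIM, the product of Bcl2l11, is known to limit the lifespan of dendritic cells, and MCL1 is a short-lived protein on which many myeloid cells depend.

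Marrow of male C57BL/6 mice, aged 6 to 8 weeks, had been kept for 7 days with 500 U/ml GM-CSF, and every sample was sorted on CD80 before its RNA was taken. The live coculture held 1D8 cells, a mouse ovarian surface epithelial tumour line, and BMDC in a ratio of 1 to 5. The irradiated coculture held 1D8 cells given 50 Gy, the conditioned medium culture received 1D8 supernatant as 25% of its volume, and the control received neither. Each condition was 1 biological sample on 1 array, so no value has a replicate error, no test was made and no p-value is given.

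Values are MAS5 signals, the linear brightness that the Affymetrix software gives a probe set. Ratios were taken on the log2 scale after signals under a floor of 44.3, the median of all signals, were raised to it. A difference of at least 2-fold is called higher or lower, and describes these arrays only. Of the 30 probe sets, 22 exceeded the floor on all 4 arrays and 27 on at least 1. The trimmed mean signal, which the scaling sets, was 149.4 to 149.5 on every array. The median signal was 46.8 in live coculture, 45.3 in irradiated coculture and 46.6 in conditioned medium, against 38.7 in the control. The share of probe sets above the floor was 51.3%, 50.6% and 51.2% in those cultures, against 46.8% in the control. The part of this in the ratios of dim probe sets to the control was not tested. All 10 dendritic cell markers and all 6 macrophage markers exceeded the floor on all arrays. The dendritic cell markers summed to 14608 in live coculture, 15478 in irradiated coculture and 22164 in conditioned medium, against 24237 in the control. The macrophage markers summed to 21279, 23026 and 25143 in those cultures, against 27724 in the control. The summed signal of 10 epithelial or mesothelial markers was 2788 in live coculture, 3466 in irradiated coculture and 768.1 in conditioned medium, against 437.9 in the control. The brightest of them, Cdh1, had 930.5, 1102 and 338.0 in those cultures, against 189.5 in the control. Epcam and Cldn4 were higher in conditioned medium (168.5 and 72.6) than in live coculture (107.2 and 16.4), unlike the rest of this list. For 7 measured neutrophil markers the sums were 810.1, 995.4 and 838.5 in the same cultures, against 1940 in the control. For 4 measured mast cell or basophil markers they were 100.3, 159.8 and 637.4, against 1110 in the control. No marker of these lists was at 0 on any array. Their part in the differences below was not tested, and fewer cells of a type cannot be told apart from less RNA per cell.

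Promoter sequence is shown for Bcl2l11 and Bbc3, which are known targets of FOXO transcription factors and differed at least 2-fold between arrays. Of their stretches, those that held a match to a motif sought below are printed. Bmf also differed at least 2-fold between arrays, but its stretches held no match and are not printed. The stretches are the 250 bases before a RefSeq transcript start (GRCm38.p6), read 5′ to 3′ on the plus strand, which is the strand of both genes. Capitals mark the matches found. The first is the stretch before the outermost start of Bcl2l11, at chr2:128125788-128126037, and the next lie before the second and the third start of Bbc3, at chr7:16310011-16310260 and chr7:16310181-16310430.
Bcl2l11, the outermost start: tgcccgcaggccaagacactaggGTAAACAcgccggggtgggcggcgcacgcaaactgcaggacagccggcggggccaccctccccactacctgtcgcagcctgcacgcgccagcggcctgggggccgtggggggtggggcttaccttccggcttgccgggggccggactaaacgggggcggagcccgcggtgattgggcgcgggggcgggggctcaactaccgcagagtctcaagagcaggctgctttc
Bbc3, the second start: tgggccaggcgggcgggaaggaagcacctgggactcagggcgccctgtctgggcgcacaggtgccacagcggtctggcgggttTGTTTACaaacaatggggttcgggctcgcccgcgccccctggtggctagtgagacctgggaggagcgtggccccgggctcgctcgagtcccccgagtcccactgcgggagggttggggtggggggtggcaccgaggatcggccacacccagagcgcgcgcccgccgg
Bbc3, the third start: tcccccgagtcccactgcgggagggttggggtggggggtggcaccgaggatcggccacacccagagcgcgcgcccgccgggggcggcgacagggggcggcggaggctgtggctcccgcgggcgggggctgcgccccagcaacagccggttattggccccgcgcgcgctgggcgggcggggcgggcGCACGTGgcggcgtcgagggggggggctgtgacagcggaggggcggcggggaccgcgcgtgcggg

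The forkhead letters TGTTTAC stand on the minus strand of the Bcl2l11 stretch, 227 to 221 bases before the start, where they read GTAAACA. They stand on the plus strand of the Bbc3 stretch before its second start, 167 to 161 bases from it. The stretch before the third start of Bbc3 holds the E-box CACGTG, 64 to 59 bases from the start, overlapped by a minus-strand match to the hypoxia letters ACGTGC. Of 32851 stretches of this length before RefSeq starts, 3.17% held TGTTTAC on either strand, 4.92% held ACGTGC and 6.02% held CACGTG. Matches were also sought for TGACGTCA (1.55% of stretches), TTCNNNGAA, where N is any base (7.02%), and the interferon-stimulated response element (2.98%), and none of these occurred in the 16 stretches read, which belong to all of the 10 genes except Pmaip1. The stretch of Bax held the E-box CACGTG, 9 to 4 bases before the start. The stretches of Bmf, Mcl1, Bcl2, Bcl2l1, Bid and Bak1 held no match to any of the 6 motifs. Nor did the stretch before the other start of Bcl2l11, at chr2:128127325-128127574, or that before the first start of Bbc3, at chr7:16309333-16309582. A match is a run of letters and was not measured as a binding site.

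**Figure D1:**
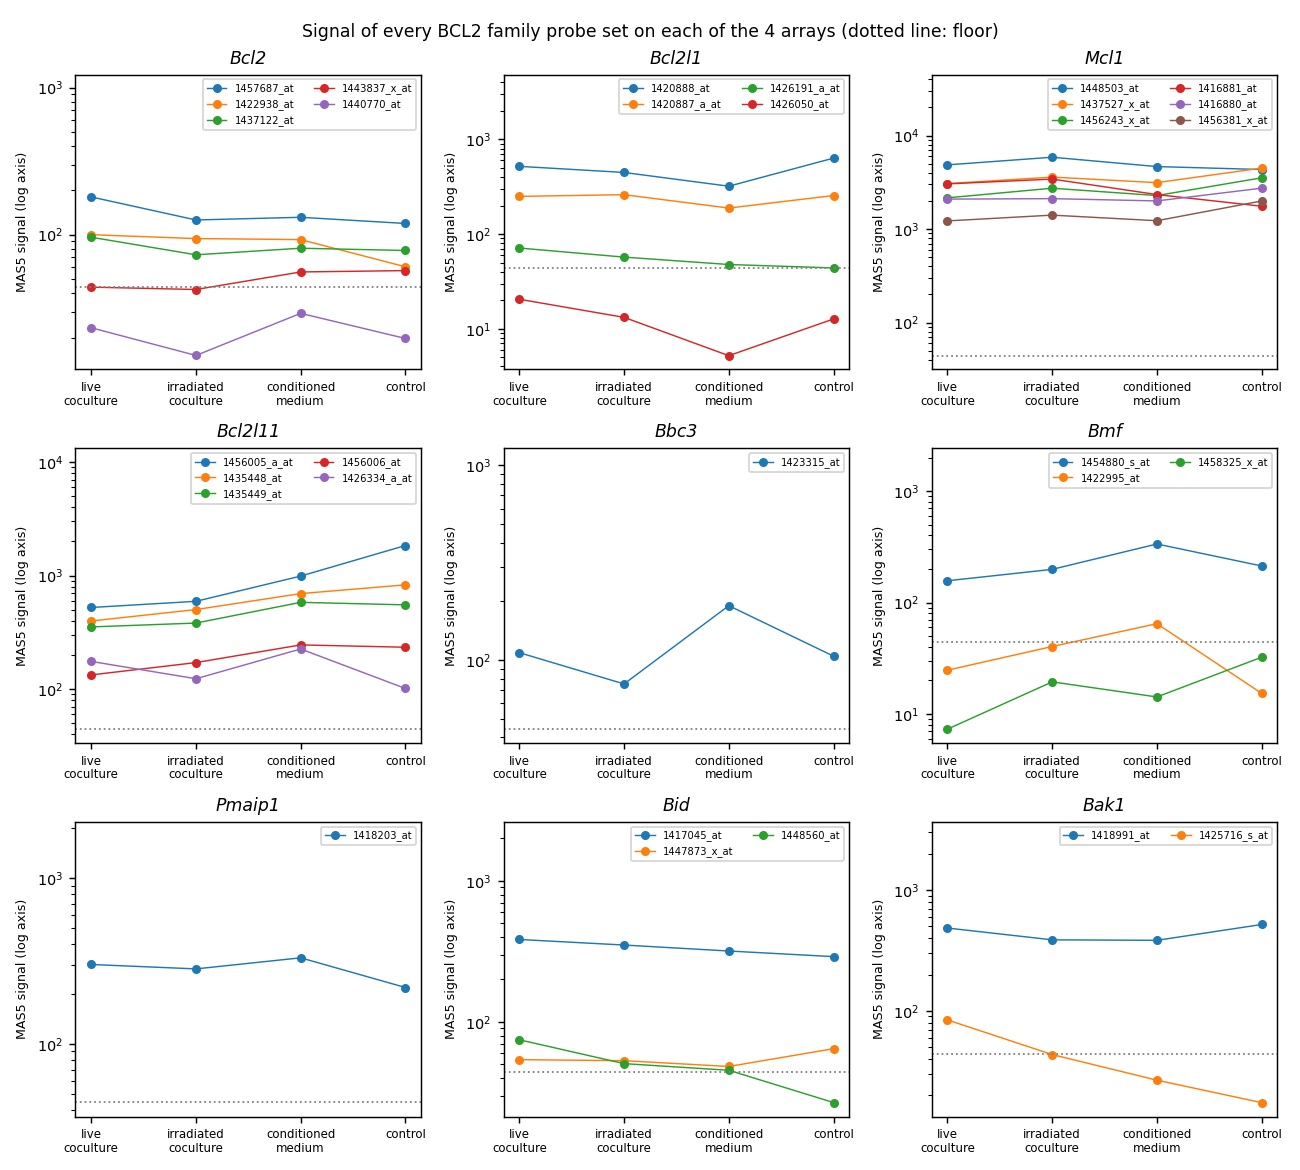
Signal of each BCL2 family probe set (vertical axis, MAS5 signal, log scale) on the live coculture, irradiated coculture, conditioned medium and control arrays (horizontal axis), 1 panel per gene; lines only join the points of a probe set and the dotted line is the floor of 44.3. The brightest Bcl2l11 probe set lies at 523.1 in the live coculture and 1840 in the control, and that of Bmf is highest in conditioned medium at 335.6.

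Against the control, Bcl2l11 was the BCL2 family gene that differed at least 2-fold in the cocultures, and it was lower in both. At its brightest probe set, 1456005_a_at, the signal was 523.1 in live coculture, 593.0 in irradiated coculture and 989.4 in conditioned medium, against 1840 in the control. The control was the highest of the 4 arrays and the cocultures were the lowest. It was 3.52-fold lower in the live coculture (log2 ratio -1.81) and 3.10-fold lower in the irradiated coculture (-1.63), and in conditioned medium the ratio was -0.90, under the threshold. So 1 of 9 genes was lower and 0 of 9 were higher in each coculture, where 2.24% of all genes were lower and 3.39% higher in the live coculture, and 2.26% were lower and 3.52% higher in the irradiated coculture. These comparisons and that of conditioned medium share the control array. The dendritic cell, macrophage and mast cell or basophil marker sums given above all had the same order over the 4 arrays as this probe set. Single markers departed from that order. Cd80 had 378.2 in live coculture, 325.8 in irradiated coculture and 201.3 in conditioned medium, against 85.5 in the control. Cd86, Flt3 and Zbtb46 were also lowest in the control, and H2-Ab1 and Adgre1 were highest in conditioned medium. The part of these cell types in the Bcl2l11 signals was not tested.

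The other probe sets of Bcl2l11 gave smaller differences in the cocultures. The signal of 1435448_at was 397.7 in live coculture, 501.5 in irradiated coculture and 693.6 in conditioned medium, against 828.3 in the control. It gave the same order of arrays. The live coculture was 2.08-fold lower than the control (log2 ratio -1.06), and the irradiated coculture had a ratio of -0.72. For 1435449_at the signals were 352.6, 381.4 and 580.8 in the live coculture, the irradiated coculture and conditioned medium, against 552.0 in the control. For 1456006_at they were 133.1, 171.0 and 244.8 in those cultures, against 233.5 in the control. Both had the cocultures lowest, and a conditioned medium ratio of 0.07.

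The fifth probe set of Bcl2l11, 1426334_a_at, went the other way. Its signal was 175.1 in live coculture, 123.2 in irradiated coculture and 225.4 in conditioned medium, against 101.1 in the control, which was the lowest array. In conditioned medium it was 2.23-fold higher than in the control, the one BCL2 family probe set of 30 that was called higher there (3.47% of all 34945 probe sets were). The _a_at suffix marks a probe set that matches several transcripts of its gene, and Bcl2l11 is known to make several splice forms. Which form each probe set reads was not determined here, and no direction is given for Bcl2l11 in conditioned medium against the control. Over the 5 probe sets the live coculture ratios spanned 2.61 log2, wider than in 97.2% of the 355 genes with 5 or more probe sets above the floor on either array, whose median span was 1.21. The mean over all 5 was -0.71 in the live coculture and -0.61 in the irradiated coculture, both under the 2-fold threshold, and without suffixed probe sets the irradiated coculture ratio was -0.72.

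Bbc3 encodes PUMA, a BH3-only protein that binds all survival members and is known as a p53 target. Its 1 probe set had signals of 109.0 in live coculture, 75.3 in irradiated coculture and 190.1 in conditioned medium, against 104.6 in the control. Conditioned medium was the highest array, 1.82-fold above the control (log2 ratio 0.86), which missed the threshold. The ratio to the control was 0.06 in the live coculture, where its sign turned with quantile normalization (-0.16) and median centring (-0.06), and -0.47 in the irradiated coculture.

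Bmf encodes a BH3-only protein that is held at the cytoskeleton until it is released. At its brightest probe set, 1454880_s_at, the signal was 156.9 in live coculture, 198.6 in irradiated coculture and 335.6 in conditioned medium, against 213.0 in the control. Conditioned medium was again the highest array, with a log2 ratio to the control of 0.66, and the live coculture was the lowest at -0.44. The second probe set, 1422995_at, exceeded the floor in conditioned medium alone (64.6, against 15.3 in the control, a log2 ratio of at least 0.54). The third stayed under the floor on all arrays.

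Pmaip1 encodes NOXA, which binds MCL1 in particular and is another known p53 target. Its 1 probe set had signals of 301.1 in live coculture, 283.2 in irradiated coculture and 330.3 in conditioned medium, against 218.7 in the control. All 3 exposed cultures lay above the control, by 1.38-fold, 1.29-fold and 1.51-fold, each under the threshold.

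Bid encodes the BH3-only protein that caspase 8 cleaves to link death receptors to mitochondria. At the brightest probe set, 1417045_at, the signal was 384.3 in live coculture, 350.9 in irradiated coculture and 318.3 in conditioned medium, against 290.4 in the control. The log2 ratios were 0.40, 0.27 and 0.13. Its probe set 1447873_x_at had the control highest instead, with ratios of -0.26, -0.28 and -0.42 in those cultures, so the probe sets fell on both sides of 0. The dim 1448560_at was under the floor in the control (26.8) and reached 74.7 in the live coculture.

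**Figure D2:**
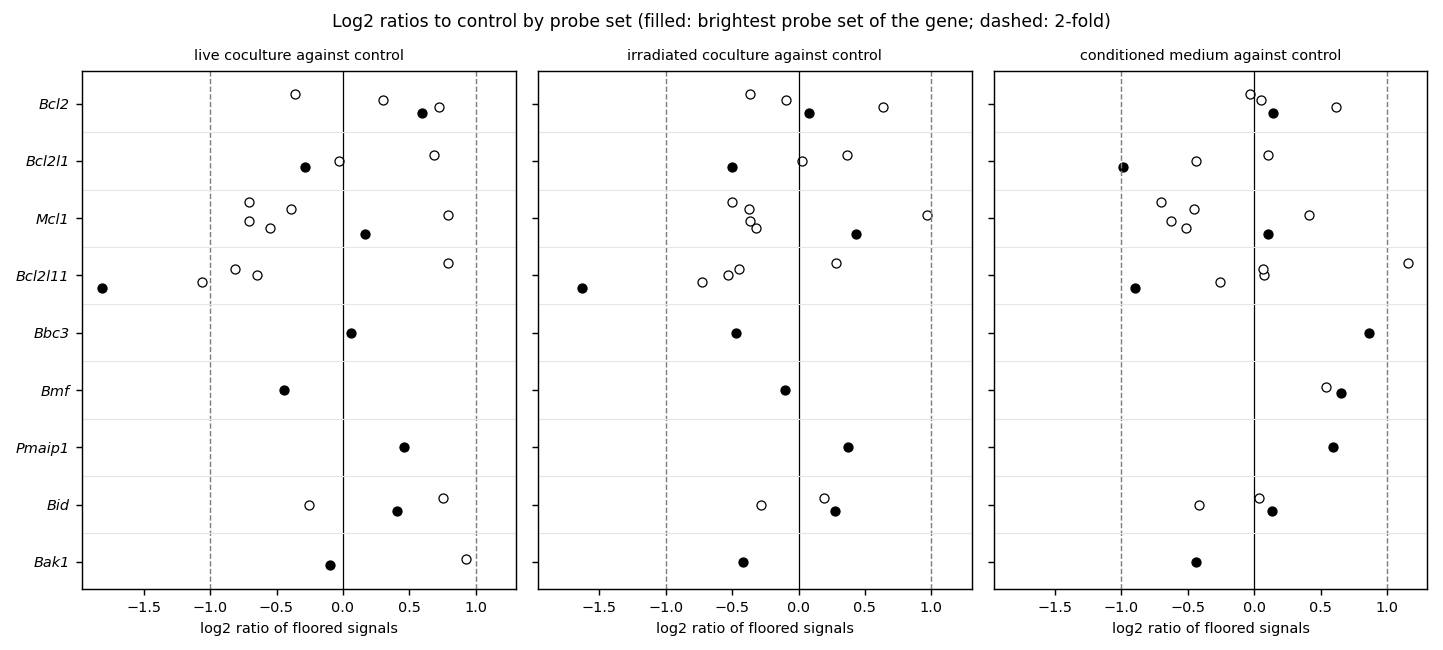
Log2 ratio of floored signals to the control (horizontal axis) for each BCL2 family probe set above the floor on either array of the comparison, by gene (vertical axis), in the live coculture, irradiated coculture and conditioned medium; filled points are the brightest probe set of each gene and dashed lines mark 2-fold. Bcl2l11 reaches -1.81 and -1.63 in the cocultures, and the probe sets of Mcl1 and Bcl2l11 fall on both sides of 0.

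Among the survival genes, none was called higher or lower against the control at its brightest probe set, and the probe sets of Mcl1 fell on both sides of 0. At 1448503_at the signal of Mcl1 was 4861 in live coculture, 5866 in irradiated coculture and 4661 in conditioned medium, against 4334 in the control. A second probe set, 1416881_at, had 3042, 3426 and 2339 in those cultures, against 1755 in the control. These 2 put the control lowest, with log2 ratios up to 0.97 in the irradiated coculture, just under 2-fold. With median centring the conditioned medium ratio of 1448503_at was -0.01 (0.10 as deposited).

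The remaining 4 probe sets of Mcl1 put the control highest. The signals of 1437527_x_at were 3067 in live coculture, 3597 in irradiated coculture and 3138 in conditioned medium, against 4488 in the control. Those of 1416880_at were 2091, 2116 and 2000 in those cultures, against 2739 in the control. With 1456243_x_at and 1456381_x_at, the log2 ratios of these 4 lay between -0.71 and -0.32 over the 3 exposed cultures. The _x_at suffix, which 3 of the 4 carry, marks probes that may also match other sequences. The span over the 6 probe sets was 1.51 log2 in the live coculture, wider than in 68.5% of the 355 genes with 5 or more such probe sets. Actb, whose 3′ over 5′ control signal grows as RNA breaks down, had a value of 1.14 for it in live coculture, 1.12 in irradiated coculture and 1.20 in conditioned medium, against 1.30 in the control. The part of RNA integrity in the split between probe sets was not tested.

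Bcl2l1 encodes BCL-XL, a long-lived survival protein. At 1420888_at the signal was 518.7 in live coculture, 447.1 in irradiated coculture and 320.1 in conditioned medium, against 633.7 in the control. Conditioned medium was the lowest array, 1.98-fold under the control (log2 ratio -0.99), and median centring took this past 2-fold (-1.10). At 1420887_a_at the signal was 249.9, 260.5 and 188.2 in those cultures, against 255.2 in the control, again lowest in conditioned medium (-0.44). At the dim 1426191_a_at the control was lowest, at 43.9, against 71.2 in the live coculture.

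Bcl2, the founding member of the family, had no probe set past 2-fold in any comparison. Its brightest probe set, 1457687_at, had signals of 180.6 in live coculture, 125.9 in irradiated coculture and 131.3 in conditioned medium, against 119.2 in the control. The live coculture was the highest array, with a log2 ratio of 0.60. The ratios in the irradiated coculture (0.08) and conditioned medium (0.14) turned to -0.07 and -0.06 after quantile normalization. At 1422938_at all 3 exposed cultures lay above the control (100, 94.1 and 92.6, against 60.5), by log2 ratios of 0.72, 0.64 and 0.61, under the threshold. At 1437122_at the ratios in those cultures were 0.30, -0.10 and 0.05. The dim 1443837_x_at had the control highest instead, at 57.0, with 55.8 in conditioned medium and both cocultures under the floor. So the probe sets of Bcl2 fell on both sides of 0. The fifth, 1440770_at, stayed under the floor on all arrays.

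Of the effectors, Bak1 was read on all arrays by 1 probe set. Its signal at 1418991_at was 485.4 in live coculture, 387.6 in irradiated coculture and 384.0 in conditioned medium, against 519.3 in the control. The control was highest, and the log2 ratios of -0.10, -0.42 and -0.44 were under the threshold. The dim probe set 1425716_s_at exceeded the floor in the live coculture alone (84.2, against 17.4 in the control).

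Over the 9 genes at their brightest probe sets, the median log2 ratio to the control was 0.06 in live coculture, -0.10 in irradiated coculture and 0.13 in conditioned medium, beside 0.00 over all genes in each. In conditioned medium 0 of 9 genes were called, where 3.73% of all genes were, 2.31% higher and 1.42% lower. The median size of the ratio, without its sign, was 0.40, 0.42 and 0.59 in the 3 cultures for the 9 genes. Over the 9835 genes above the floor on all arrays it was 0.34, 0.33 and 0.31. The SD of a log2 ratio, judged across genes from how their 2 brightest probe sets differ, was 0.41, 0.38 and 0.36 in these comparisons. It holds technical spread and differences between transcript forms. It does not include biological spread, or error that the probe sets of a gene share on an array.

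**Figure D3:**
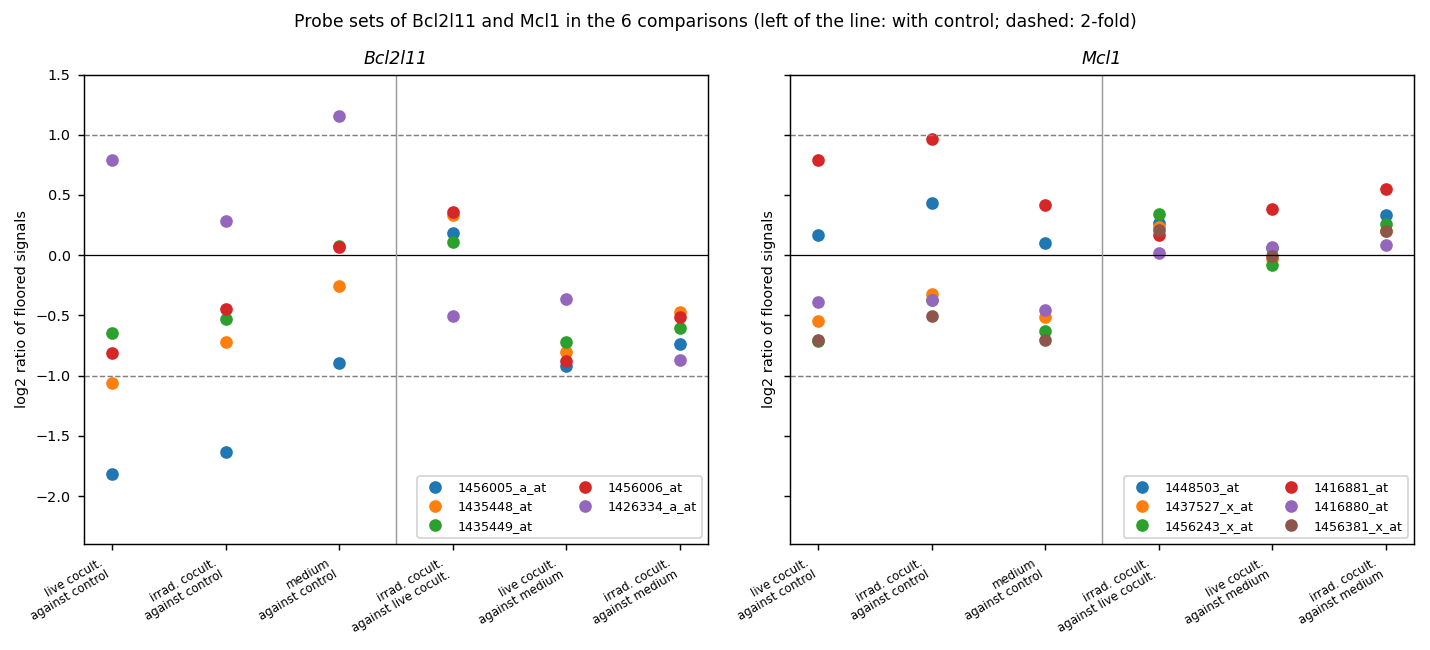
Log2 ratio of floored signals (vertical axis) for the 5 probe sets of Bcl2l11 and the 6 of Mcl1 in the 6 comparisons between arrays (horizontal axis), with those that use the control array left of the vertical line and 2-fold marked by dashed lines. The probe sets of both genes straddle 0 against the control, while all 5 of Bcl2l11 lie under 0 in both cocultures against conditioned medium.

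In the comparisons that leave out the control array, the ratios of Bcl2l11 and Mcl1 spanned less across their probe sets than in those against the control. So did those of all genes with 5 or more probe sets above the floor on either array. Their median span was 1.21 log2 in live coculture, 1.11 in irradiated coculture and 1.11 in conditioned medium against the control. It was 0.59 between the cocultures, and 0.69 (live) and 0.71 (irradiated) against conditioned medium. All 5 probe sets of Bcl2l11 were lower in signal in the live coculture than in conditioned medium, with log2 ratios from -0.92 to -0.36, and the same held for all 5 in the irradiated coculture, from -0.87 to -0.47. None reached 2-fold. The span over the 5 was 0.56 and 0.40 log2, less than the median of 0.69 and 0.71 for genes with 5 or more such probe sets. All such probe sets fell on 1 side of 0 in 31.5% of the 365 genes with 5 or more of them in the live comparison, and in 33.1% of 354 in the irradiated one. All 5 also kept that sign under both other floors, quantile normalization and median centring. The 2 comparisons share the conditioned medium array.

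Bbc3 and Bmf had the same sign as Bcl2l11 there. The irradiated coculture had 75.3 against 190.1 in conditioned medium for Bbc3, which is 2.52-fold lower (log2 ratio -1.34), and the live coculture had 109.0 (-0.80, under the threshold). With the floor at the 75th percentile, above most of these signals, the irradiated ratio was -0.29. Bmf was 2.14-fold lower in the live coculture, with 156.9 against 335.6 in conditioned medium (-1.10), and had a ratio of -0.76 in the irradiated coculture. The call for Bmf was lost without suffixed probe sets, where -0.54 is a bound, since 1422995_at was under the floor in the live coculture (24.7). It was also lost as the mean over probe sets (-0.55), which takes in that bound and a probe set under the floor on all arrays. Thus 1 of 9 genes was lower in each of these comparisons, where 1.14% of all genes were lower in the live coculture and 1.24% in the irradiated one. None of the 9 was higher, where 1.78% and 1.99% of all genes were. Pmaip1 had ratios of -0.13 and -0.22.

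The survival gene Bcl2l1 had the opposite sign. In the live coculture against conditioned medium its 3 probe sets that exceeded the floor gave 0.41, 0.58 and 0.70 log2, and in the irradiated coculture 0.26, 0.47 and 0.48, each under 2-fold. The SD judged from pairs of probe sets was 0.22 in each of these comparisons, and it leaves out biological spread and error that probe sets share. Bid was also above 0 at all 3 probe sets in both cocultures, from 0.14 to 0.72, and Bak1 at both of its probe sets in the live coculture (0.34 and at least 0.93). Among genes with 2 or more probe sets above the floor on either array, 57.4% had all of them on 1 side of 0 in the live comparison and 58.6% in the irradiated one. All 3 of Bcl2l1 and of Bid kept their sign with the floor at the 25th percentile, quantile normalization and median centring. With the floor at the 75th percentile, 2 of 3 of Bcl2l1 and 1 of 3 of Bid stayed above 0 in each comparison. By construction, that floor lies above the signals of their other probe sets on all arrays. The 0.72 of Bid came from the dim 1448560_at, with 74.7 in live coculture and 45.4 in conditioned medium. The summed epithelial markers of 2788 and 3466 in the cocultures, against 768.1 in conditioned medium, differ between the same arrays, and no array of 1D8 cells alone was analysed here.

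**Figure D4:**
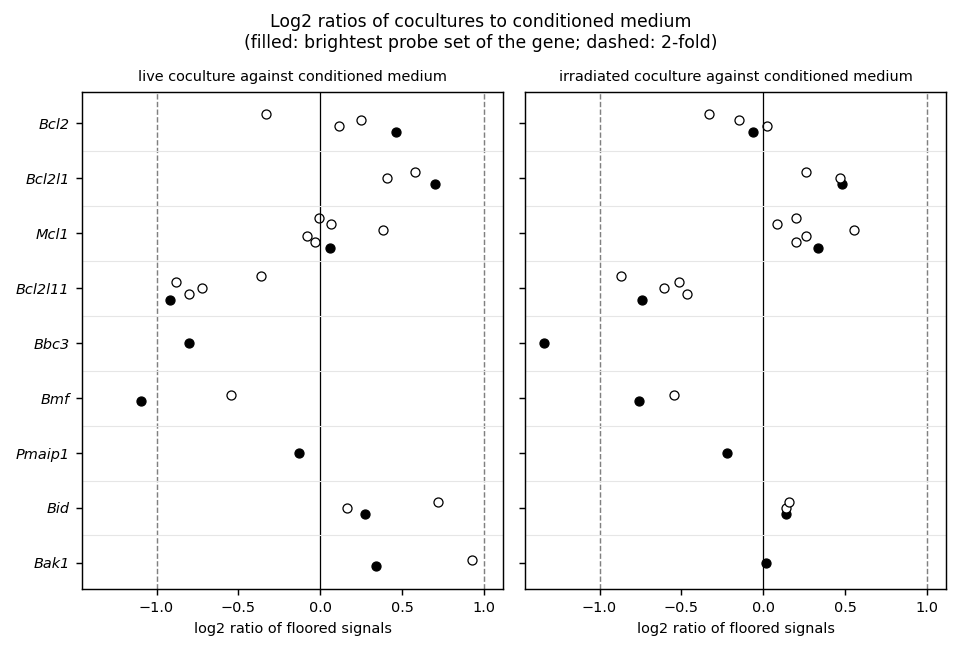
Log2 ratio of floored signals to conditioned medium (horizontal axis) for each BCL2 family probe set above the floor on either array, by gene (vertical axis), in the live and the irradiated coculture; filled points are the brightest probe set of each gene and dashed lines mark 2-fold. Each point of Bcl2l11, Bbc3 and Bmf lies left of 0, with Bbc3 at -1.34 in the irradiated coculture and Bmf at -1.10 in the live one, and each point of Bcl2l1 lies right of it.

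Between the irradiated and the live coculture, 0 of 9 genes differed 2-fold, where 0.676% of all genes did, and 0 of 30 probe sets did, where 0.612% of all did. All 6 probe sets of Mcl1 had a higher signal in the irradiated coculture, with log2 ratios from 0.02 to 0.34, though 4 of 6 did after quantile normalization. Of genes with 5 or more probe sets, 18.8% had all of them on 1 side in this comparison. Bcl2 had ratios from -0.52 to -0.09 at its 3 probe sets above the floor in either culture, Bid from -0.56 to -0.02 at 3 (2 of them below 0 with quantile normalization or median centring), and Bbc3 had -0.53. Both probe sets of Bak1 were below 0, at -0.32 and at least 0.93 log2 lower. Of genes with 2 or more such probe sets, 49.2% had all on 1 side. Mcl1 was also above 0 at all 6 probe sets in the irradiated coculture against conditioned medium, from 0.08 to 0.55, while in the live coculture 3 of 6 were.

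Bcl2l11 had the widest range over the arrays among the brightest probe sets of the 9 genes. The genes with the most similar profile over the 4 arrays, by the largest difference between log2 signals centred on their mean, were Amdhd2 (0.08), Fnip2 (0.13) and Mettl17 (0.15). The signals of Fnip2 were 826.5 in live coculture, 832.1 in irradiated coculture and 1385 in conditioned medium, against 2607 in the control. With 4 arrays, 8 genes lay within 0.2 of 1456005_a_at, the brightest probe set of Bcl2l11, on this measure. The other probe sets of Bcl2l11 were not compared in this way, and 1426334_a_at had the control lowest.

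Other genes around the family were grouped in 6 lists, read against 5.63% of all genes past 2-fold in live coculture, 5.78% in irradiated coculture and 3.73% in conditioned medium. Of 10 measured genes among 14 further BCL2 family and BH3-like genes, 2 were higher in live coculture, 1 in irradiated coculture and 1 in conditioned medium, and none was lower. Bnip3, a mitochondrial BH3-like protein known for mitophagy under hypoxia, had signals of 2863 in live coculture, 3719 in irradiated coculture and 737.5 in conditioned medium, against 244.7 in the control. It was higher in all 3, by 11.7-fold, 15.2-fold and 3.01-fold. Bok, an effector related to BAX and BAK, was 2.07-fold higher in the live coculture, with 113.0 against 54.5 in the control. The call was lost with quantile normalization (log2 ratio 0.81) and median centring (0.93). By construction it was also lost with the 75th percentile floor, which lies above its signals on all arrays.

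Downstream of the mitochondria single genes were called. Of 10 measured apoptosome and caspase genes, Casp6, an executioner caspase, was 2.47-fold higher in the irradiated coculture, with 529.7 against 214.2 in the control. As the mean over probe sets it had 0.65 log2, since its other probe set was under the floor on both arrays. Endog, a mitochondrial nuclease, was 2.65-fold lower in conditioned medium at its brightest probe set, with 60.3 against 159.5 in the control. Its other probe set had a log2 ratio of -0.03, and the mean was -0.72. With the 75th percentile floor, which the brightest probe set exceeded in the control alone, the ratio was -0.04. None of 7 measured inhibitor of apoptosis genes, which block caspases, was called in any of the 3 comparisons with the control.

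Of 11 measured death receptor genes, Tnfrsf1b, a receptor for TNF without a death domain, was lower in both cocultures. Its signals were 965.5 in the live coculture and 1020 in the irradiated coculture, against 2603 in the control, or 2.70-fold and 2.55-fold lower. Its other probe set had log2 ratios of 0.24 and -0.03, and the means of both probe sets, -0.60 and -0.69, were under the threshold. Fas, a death receptor, was 2.19-fold higher in conditioned medium, with 116.5 against 53.1 in the control. The call was lost with quantile normalization (0.89) and, by construction, with the 75th percentile floor, which lies above its signals on all arrays. Among 13 measured upstream regulators, Ddit3, the stress factor CHOP that can induce Bcl2l11, was 2.85-fold lower in the irradiated coculture, with 116.5 against 332.4 in the control. As the mean over probe sets its ratio there was -0.76, since its other probe set was under the floor on both arrays. In the live coculture its probe sets disagreed, at -0.89 for the brightest and 1.07 for the other. Bag3, a cochaperone that binds BCL2, was 3.00-fold lower in conditioned medium, with 127.2 against 381.6 in the control.

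Of 14 measured p53 target genes, a list that includes Bbc3 and Pmaip1, 2 were higher and 1 was lower in each coculture, and 1 was lower in conditioned medium. Cdkn1a, the cell cycle inhibitor p21, had signals of 2086 in the live coculture and 2076 in the irradiated coculture, against 1008 in the control. It was 2.07-fold and 2.06-fold higher, under 2-fold with median centring (0.93 and 0.97 log2). Its other probe set had log2 ratios of 1.73 and 1.61, and the means over probe sets were 1.39 and 1.32. Sesn2, a stress-induced inhibitor of mTOR complex 1, was 2.35-fold and 3.18-fold higher in those cultures. The other probe set of Sesn2 had log2 ratios of 0.93 and 1.71. With the 75th percentile floor, above the control signal of 98.9 at the brightest probe set of Sesn2, the live coculture ratio was 0.58 log2. Its relative Sesn1 had 329.2 and 377.1 in those cultures, against 865.8 in the control, and was 2.63-fold and 2.30-fold lower. Those calls were lost as means over probe sets (-0.95 and -0.71) and without suffixed probe sets (-0.94 and -0.63). Plk2, a kinase, was 2.76-fold lower in conditioned medium, with 498.1 against 1375 in the control. As the mean over probe sets it had -0.73 log2, since its other probe set was under the floor on both arrays.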

How the data were processed

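RNA of 4 sorted BMDC samples was labelled and hybridised to 1 Affymetrix array each. The deposited values are linear signal intensities, 1 per probe set, made by the authors with GCOS 1.4 and MAS5, per the submitters' processing notes, and their near-equal trimmed means (2% cut at each end) show a common scaling whose target is not given in the sources used here. MAS5 subtracts mismatch signal, so ratios of dim probe sets are noisy. The table held 45101 probe sets, less 64 control probe sets. Of the rest 34945 had 1 gene in the platform annotation, 932 had several and 9160 were unlisted. Entrez identifiers matched RefSeq (GRCm38.p6) for 34741, and no symbol was replaced. Signals were floored at the 50th percentile (44.3), and each gene was shown by the probe set with the highest mean floored log2 signal. Where another probe set passed 2-fold the other way, the gene was given no direction in that comparison, and smaller disagreements are given as values. Probe sets of a gene share 1 RNA sample and are not replicates, so precision is limited by how few arrays there are. The alternatives were floors at the 25th (12.9) and 75th (155.6) percentiles, quantile normalization, median centring, the mean over probe sets, omission of probe sets with suffix _s_at, _x_at, _a_at or _i_at, and a 3-fold threshold. Promoter windows from RefSeq were used for 9 of the 10 genes (not Pmaip1), and 1320 of 1320 overlapping windows of opposite strand were reverse complements. All members were named, with up to 4 genes of each of 6 other lists at least 2-fold apart from the control and 3 genes of similar profile. The members and lists were chosen with earlier results of these data known. Python 3.11.15, pandas 2.3.3 and numpy 2.4.6 were used. The steps were tested on simulated data, with noise taken from the difference between the cocultures. Changes were put into bright genes alone, alike at all probe sets of a gene. Changes in dim genes, and probe sets that disagree, were not covered.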

Additional observations from a re-analysis of the deposited data

How the results depend on the processing

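No paired analysis was possible because each condition had 1 array, and none could be left out. The 54 ratios of the 9 genes kept their sign in 54 cases with the floor at the 25th percentile, 48 with that at the 75th, 51 with quantile normalization, 52 with median centring, 47 as means over probe sets and 51 without suffixed probe sets. As means over probe sets, 0 BCL2 family genes were lower in either coculture against the control, and 0 in the live coculture against conditioned medium. Without suffixed probe sets 0 were lower in the irradiated coculture against the control and 0 in the live coculture against conditioned medium. With the floor at the 75th percentile, 0 were lower in the irradiated coculture against conditioned medium. At 3-fold 0 were lower in either coculture against conditioned medium. With median centring 2 were lower in conditioned medium against the control, Bcl2l1 and Bcl2l11 (-1.01). For the live coculture against the control, 1025 genes in all were past the threshold, 2274 and 517 with the lower and the higher floor and 272 at 3-fold. The same counts were 1052, 2237, 528 and 328 for the irradiated coculture and 679, 1701, 308 and 99 for conditioned medium against the control. They were 123, 1084, 25 and 12 for the irradiated against the live coculture, where the mean over probe sets gave 61. They were 531, 1597, 244 and 142 for the live coculture and 588, 1650, 265 and 161 for the irradiated coculture against conditioned medium. Against the control, the higher genes made up 60.2% of called genes in the live coculture as deposited, 49.9% with quantile normalization and 46.8% with median centring. For the irradiated coculture these shares were 60.8%, 53.2% and 52.7%, and for conditioned medium 61.9%, 45.5% and 42.3%. Median centring moved the median of genes above the floor against the control to -0.17 (live coculture), -0.12 (irradiated) and -0.11 (conditioned medium), beside -0.04, -0.05 and 0.00 as deposited. By construction, averaging takes in probe sets with smaller or opposite ratios, omitting suffixed probe sets drops the brightest of Bcl2l11 and Bmf, and the higher floor lay above the signal of Bbc3 in the irradiated coculture.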
